A study of Mus musculus with 34 samples.

Results

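Platelet granule genes are described here as a set of 8 genes of the count table, Pf4, Ppbp, Srgn, Clu, Thbs1, Vwf, Selp and F2r, taken by name from its 13108 gene rows. All 8 were present. They were chosen by their measured CPM in both genotypes and at both ages, so the differences in these genes, between genotypes and between ages, are given as a description without a test. Other platelet genes were tested. RNA was sequenced from bone marrow HSCs (LSK CD48-CD150+) of C57BL/6 mice, 4 young Ythdf2CTL, 4 young Ythdf2CKO, 4 aged Ythdf2CTL and 5 aged Ythdf2CKO, aged meaning 1 year old. Each library was made by SMART-Seq2 from 100 sorted cells, and each mouse gave a library A and a library B. In Ythdf2CKO mice Vav-iCre, which acts throughout the hematopoietic system, deletes the floxed exon of Ythdf2, the gene of a reader of m6A-modified mRNA. The floxed allele carries GFP fused to the Ythdf2 coding sequence, and control mice carry that allele too but lack Cre. The deletion is therefore not limited to HSCs.

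Platelets are shed by megakaryocytes, which load them with granules. Alpha granules hold chemokines, adhesive proteins and growth factors, and their membrane carries P-selectin, which reaches the platelet surface when the granules are released. Thrombin triggers that release through its receptors. Transcripts of several of these genes are also known in HSCs, and HSCs that carry Vwf mRNA are known for a bias toward platelet production. Of the genes described, Pf4 and Ppbp encode CXC chemokines, Vwf, Selp and Thbs1 encode adhesive proteins, Clu encodes the chaperone clusterin, Srgn encodes the proteoglycan core of granules, and F2r encodes the thrombin receptor PAR1.

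Pf4 and Ppbp are neighbors. In the GENCODE annotation of GRCm38, Ppbp lies on chromosome 5 from 90768518 to 90770063 and Pf4 from 90772435 to 90773383, both on the plus strand, with starts 3917 bases apart. The RefSeq promoter table of GRCm38.p6 had an entry for 5 of the 8 genes, with 6 windows of 250 bases before to 50 bases after a start. Vwf, Thbs1 and Clu had none. Because these adjacent chemokine genes were measured at very different levels, the 250 bases before each start are shown, with letters of an ETS motif (GGAAGT, or ACTTCC on the other strand) in capitals, together with the stretch after the Pf4 start that holds a GATA motif (AGATAA, or TTATCT) in capitals.
Pf4, chr5:90772185-90772434, plus strand: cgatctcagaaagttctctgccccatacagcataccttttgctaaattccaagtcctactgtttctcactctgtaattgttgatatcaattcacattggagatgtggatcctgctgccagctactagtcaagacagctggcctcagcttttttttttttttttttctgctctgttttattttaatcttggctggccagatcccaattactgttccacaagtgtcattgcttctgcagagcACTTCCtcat
Ppbp, chr5:90768268-90768517, plus strand: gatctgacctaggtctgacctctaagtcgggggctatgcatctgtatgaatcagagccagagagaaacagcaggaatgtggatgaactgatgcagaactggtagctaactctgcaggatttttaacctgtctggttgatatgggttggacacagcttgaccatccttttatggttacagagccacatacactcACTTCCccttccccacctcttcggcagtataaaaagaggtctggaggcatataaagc
Pf4, chr5:90772455-90772484, plus strand: actgggcaggcagtgaAGATAAaacgtgct
The ETS letters stood at position -10 from the Pf4 start and at -57 from the Ppbp start, both on the reverse strand. The same motif was found at 21 in Selp and at -145 in 1 of the Srgn windows, and 23.8% of all 32851 promoters of the table held it. Among the 5 genes the GATA letters occurred only in Pf4, at position 37, and 11.2% of all promoters held them. The motifs share no overlapping letters in these windows. Such matches describe the sequence and are not measured binding sites.

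Ythdf2 was measured at 118, 123, 93.3 and 97.2 CPM (CPM, counts scaled to a common library size after TMM normalization) in young Ythdf2CTL mice 1 to 4 and at 55.6, 57.6, 60.2 and 50.3 CPM in young Ythdf2CKO mice 1 to 4. In aged mice the level of 2 mice went against their labels. The mouse labelled Ythdf2CKO 121 had 188 CPM of Ythdf2, above every aged Ythdf2CTL mouse, whose highest value was 179, and the mouse labelled Ythdf2CTL 124 had 70.4, below every aged Ythdf2CKO mouse, whose lowest value was 72.4. Both were kept as labelled. Library B of aged Ythdf2CTL mouse 99 held 187034 counts and was left out, so that mouse is represented by 1 library. The 33 libraries used had between 1859784 and 7784627 counts and the 17 mice between 2218618 and 10125624. At these depths 3 counts, the limit that a count of 0 allows, correspond to between 0.296 and 1.35 CPM per mouse. Reads of Y-linked genes were present in 3 of 4 young Ythdf2CTL, 1 of 4 young Ythdf2CKO, 1 of 4 aged Ythdf2CTL and 1 of 5 aged Ythdf2CKO mice. In young mice sex and genotype are therefore partly confounded, and a Y-linked covariate was among the alternative fits. Young and aged libraries carry different submission codes in the sample descriptions, so age and submission cannot be told apart. None of 12 HSC marker genes was at 0 throughout any group. This does not test the HSC label, because none of the 5 T and NK cell markers in the table was either.

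In young mice 6 of the 8 genes, Pf4, Ppbp, Clu, Vwf, Selp and F2r, were higher in every Ythdf2CKO mouse than in every Ythdf2CTL mouse, a pattern seen in 2.68% of the 11526 genes tested. Since this contrast was in view when the genes were chosen, nothing is read from that count. The fold changes were 5.61 for Selp, 3.48 for Pf4, 2.94 for Clu, 2.69 for Ppbp, 2.66 for Vwf and 1.49 for F2r between group means. Srgn did not separate the groups. Thbs1 did not pass the filter on counts, with at most 9 counts in control mice and 0 in Ythdf2CKO mouse 1. Thus 7 of the 8 genes entered the fit. In aged mice Pf4 alone separated the genotypes, against 1.78% of 11961 genes. Without the mouse labelled Ythdf2CKO 121, 4 of the 8 genes did so, Pf4, Clu, Vwf and Selp, beside 4.08% of all genes, and nothing is read from either count. In bulk RNA of sorted cells, a smaller share of cells that express a gene and less RNA per cell cannot be told apart, and this holds for every level below.

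**Figure D1:**
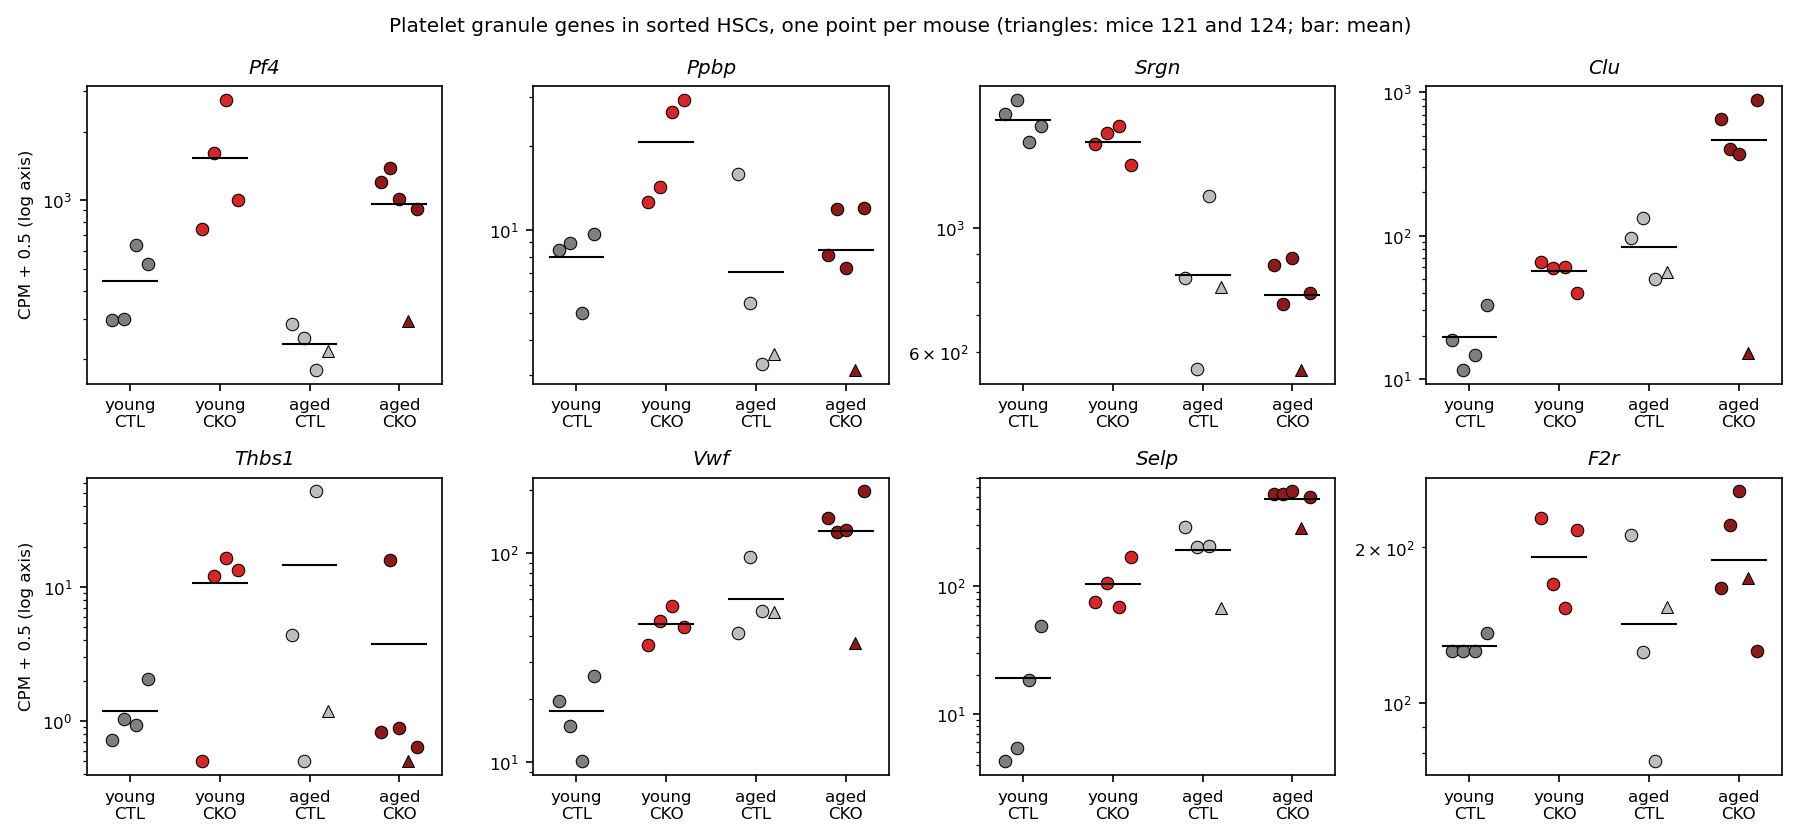
Level of each platelet granule gene in each of 17 mice, as CPM plus 0.5 on a log axis, by age and genotype. Points are mice, triangles are the mice labelled 121 and 124, and bars are group means. Pf4 in aged Ythdf2CTL mice lies between 179 and 286 CPM, below all other groups' means, while Selp in aged Ythdf2CKO mice lies between 286 and 557.

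Between ages, Clu, Vwf and Selp were higher in every aged Ythdf2CTL mouse than in every young one, and Pf4 and Srgn were lower in every aged mouse. Of the 11633 genes tested, 7.47% were apart in this way upward and 10.4% downward. In Ythdf2CKO mice Selp was higher in every aged mouse than in every young one, and Ppbp and Srgn were lower, beside 9.39% and 11.7% of 11873 genes. Without the mouse labelled Ythdf2CKO 121, 3 genes were higher in this way, Clu, Vwf and Selp, and the 2 lower genes were Ppbp and Srgn as before, beside 11.8% and 13.5% of all genes. Since the levels at both ages were in view when the genes were chosen, nothing is read from these counts. The median log2 change of all genes was 0.11 in Ythdf2CTL and 0.07 in Ythdf2CKO mice.

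Per kilobase of exon, the mean level over the 17 mice spanned from 1110.1 CPM per kb for Pf4 and 510.3 for Srgn to 1.12 for Thbs1. Clu, F2r and Selp lay close together at 50.7, 49.1 and 48.9 CPM per kb, Ppbp was at 9.60 and Vwf at 4.12. Pf4 and Srgn are short genes (0.721 and 2.196 kb of exon) and Vwf is the longest of the set (16.064 kb), so the order by CPM alone is different, with Srgn at 1121 CPM above Pf4 at 800.4.

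Pf4 encodes platelet factor 4, which binds heparin and restrains megakaryocyte growth and HSC cycling. Its level was 297, 299, 637 and 526 CPM in young Ythdf2CTL mice 1 to 4 and 745, 1603, 2764 and 1004 CPM in young Ythdf2CKO mice 1 to 4. Every Ythdf2CKO mouse was above every control mouse. In aged mice it was 286, 247, 179 and 218 CPM in Ythdf2CTL mice 65, 99, 114 and 124, and 1202, 1382, 1009, 294 and 917 CPM in Ythdf2CKO mice 78, 81, 94, 121 and 122. The mouse labelled Ythdf2CKO 121 was only just above the control mice, and the other 4 stood at 1127 ± 207 (SD, n = 4). The log2 fold change of Ythdf2CKO against Ythdf2CTL was 1.80 (SE 0.34) in young and 2.05 (SE 0.35) in aged mice. The log2 difference of aged against young mice was -0.92 (SE 0.26) in Ythdf2CTL and -0.67 (SE 0.39) in Ythdf2CKO mice. It differed between the libraries, at -1.43 with library A alone and -0.083 with library B alone in Ythdf2CTL mice, and at 0.028 and -1.55 in Ythdf2CKO mice. All 4 aged control mice were below all 4 young ones, but with total counts in place of TMM the highest aged mouse (290.3 CPM) was above the lowest young mouse (286 CPM). The order of group means was aged Ythdf2CTL, young Ythdf2CTL, aged Ythdf2CKO and young Ythdf2CKO, and only the lowest pair of neighbors did not overlap.

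Ppbp encodes the precursor of the neutrophil-attracting chemokine NAP-2. It was much less abundant than its neighbor, with 7.91, 8.49, 4.50 and 9.12 CPM in young Ythdf2CTL mice and 12.1, 13.7, 26.0 and 28.8 CPM in young Ythdf2CKO mice, in the order of mouse number. The genotypes did not overlap, and the log2 fold change was 1.43 (SE 0.41). Aged Ythdf2CTL mice 65, 99, 114 and 124 had 15.3, 4.95, 2.79 and 3.08 CPM, and aged Ythdf2CKO mice 78, 81, 94, 121 and 122 had 7.61, 11.4, 6.81, 2.63 and 11.5 CPM. Control mouse 65 was the highest of these 9 and Ythdf2CKO mouse 121 the lowest, so the genotypes overlapped throughout (log2 fold change 0.28, SE 0.67). That value ran from 0.024 to 1.15 with 1 mouse left out, the highest without Ythdf2CTL mouse 65. The log2 difference of aged against young mice was -1.33 (SE 0.44) in Ythdf2CKO mice, where all 5 aged mice were below all 4 young mice, and -0.18 (SE 0.68) in Ythdf2CTL mice. The counts behind these values were low, between 12 and 192 per mouse.

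Vwf encodes von Willebrand factor, which tethers platelets to the injured vessel wall. It was measured at 19.1, 14.4, 9.58 and 25.5 CPM in young Ythdf2CTL mice and at 35.8, 46.8, 55.6 and 44.0 CPM in young Ythdf2CKO mice. No Ythdf2CKO mouse reached down to the control range, and the log2 fold change was 1.42 (SE 0.30). Aged Ythdf2CTL mice 65, 99, 114 and 124 had 41.0, 95.7, 52.3 and 51.5 CPM and aged Ythdf2CKO mice 78, 81, 94, 121 and 122 had 147, 125, 128, 36.6 and 198 CPM. The mouse labelled Ythdf2CKO 121 was below all aged controls and the other 4 were above them. The log2 fold change was 1.09 (SE 0.39) with mouse 121 and 1.33 (SE 0.28) without it. Between ages the log2 difference, aged against young, was 1.81 (SE 0.37) in Ythdf2CTL and 1.48 (SE 0.34) in Ythdf2CKO mice. In Ythdf2CTL mice the 2 ages did not overlap, and in Ythdf2CKO mice only mouse 121 was inside the range of the young mice.

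Selp encodes P-selectin, which binds leukocytes through its ligand PSGL-1. It had the widest span of the 8 genes between group means, 25.9-fold. Young Ythdf2CTL mice had 3.74, 4.88, 17.9 and 48.0 CPM, and young Ythdf2CKO mice had 74.9, 106, 67.9 and 169 CPM. The groups did not overlap (log2 fold change 2.49, SE 0.58). That value was 3.53 without young Ythdf2CTL mouse 4, the highest control, and 1.85 with library B alone. In aged mice Selp was 292, 203, 205 and 66.9 CPM in Ythdf2CTL mice 65, 99, 114 and 124 and 528, 532, 557, 286 and 504 CPM in Ythdf2CKO mice 78, 81, 94, 121 and 122. The mice labelled 124 and 121 were the lowest of their groups, and mouse 121 was inside the control range. The log2 fold change was 1.33 (SE 0.34) and became 1.47 (SE 0.33) without mouse 121. The log2 difference of aged against young mice was 3.35 (SE 0.67) in Ythdf2CTL and 2.20 (SE 0.27) in Ythdf2CKO mice, and neither pair of age groups overlapped. Without young Ythdf2CTL mouse 4 the former was 4.39. The order of means was young Ythdf2CTL, young Ythdf2CKO, aged Ythdf2CTL and aged Ythdf2CKO. The middle pair and the upper pair of neighbors overlapped.

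Thbs1 encodes thrombospondin 1, an adhesive glycoprotein that binds CD36 and CD47 and activates TGF-beta. It was at or near the detection limit in most mice, with 0.22, 0.54, 0.44 and 1.55 CPM in young Ythdf2CTL mice 1 to 4. Young Ythdf2CKO mice 2, 3 and 4 had 11.7, 16.1 and 12.9 CPM, whereas Ythdf2CKO mouse 1 had 0 counts in both libraries. In aged Ythdf2CTL mice 65, 99, 114 and 124 the level was 3.88, 0, 51.6 and 0.70 CPM, and in aged Ythdf2CKO mice 78, 81, 94, 121 and 122 it was 0.33, 15.5, 0.39, 0 and 0.14 CPM. Thbs1 was thus above 3 CPM in some but not all mice of every group except the young controls, where no mouse reached it. In the mice with the most of it both libraries held it, at 67.7 and 37.4 CPM in aged Ythdf2CTL mouse 114 and at 15.5 and 15.4 CPM in aged Ythdf2CKO mouse 81. Thbs1 passed the filter on counts only in the comparison of aged with young Ythdf2CKO mice, where its log2 difference was -1.60 (SE 1.30).

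Clu encodes clusterin, an extracellular chaperone that platelets store. Young Ythdf2CTL mice 1 to 4 had 18.2, 11.0, 14.2 and 32.3 CPM and young Ythdf2CKO mice 64.4, 58.7, 60.2 and 39.5 CPM. The groups did not overlap, and the log2 fold change was 1.56 (SE 0.31). Aged Ythdf2CTL mice 65, 99, 114 and 124 had 95.8, 133, 49.0 and 54.9 CPM. Aged Ythdf2CKO mice 78, 81, 94 and 122 had 651, 405, 371 and 891 CPM, and the mouse labelled Ythdf2CKO 121 had 14.7 CPM. That mouse was below every aged control mouse and within the range of the young controls, while the other 4 averaged 579 ± 242 (SD, n = 4), 6.97-fold above the mean of the aged controls. The log2 fold change was 2.50 (SE 0.73) and without mouse 121 it was 2.81 (SE 0.37). Aged against young, the log2 difference was 2.13 (SE 0.40) in Ythdf2CTL and 3.07 (SE 0.69) in Ythdf2CKO mice. Of the 5 aged Ythdf2CKO mice, 4 were above all young ones and mouse 121 was below all of them.

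Srgn encodes serglycin, whose glycosaminoglycan chains hold PF4 and other cargo in granules of blood cells of many kinds. It was 1599, 1699.6, 1424 and 1523 CPM in young Ythdf2CTL mice and 1413, 1479, 1523 and 1295 CPM in young Ythdf2CKO mice, and the ranges overlapped (log2 fold change -0.13, SE 0.11). Aged Ythdf2CTL mice 65, 99, 114 and 124 had 815, 558, 1141 and 785 CPM, and aged Ythdf2CKO mice 78, 81, 94, 121 and 122 had 859, 732, 884, 556 and 765 CPM. The Ythdf2CKO values lay inside the control range except for mouse 121 (log2 fold change -0.11, SE 0.20). Srgn was the steadiest of the 8 genes in young Ythdf2CKO mice, with a coefficient of variation of 0.0695. The log2 difference of aged against young mice was -0.92 (SE 0.20) in Ythdf2CTL and -0.91 (SE 0.14) in Ythdf2CKO mice. In both genotypes every aged mouse was below every young mouse.

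F2r encodes PAR1, a G protein-coupled receptor that thrombin cleaves, which human platelets use and for which mouse platelets rely on other members of the family. It was 126, 126, 126 and 136 CPM in young Ythdf2CTL mice and 227, 170, 152 and 215 CPM in young Ythdf2CKO mice. Although the difference was small (log2 fold change 0.58, SE 0.16), the control mice were so alike that the groups did not overlap. Aged Ythdf2CTL mice 65, 99, 114 and 124 had 211, 125, 76.7 and 153 CPM, and aged Ythdf2CKO mice 78, 81, 94, 121 and 122 had 167, 221, 257, 174 and 125 CPM. These ranges overlapped widely (log2 fold change 0.42, SE 0.28). Between ages the log2 difference was 0.15 (SE 0.26) in Ythdf2CTL and -0.02 (SE 0.20) in Ythdf2CKO mice, and the latter was positive with total counts in place of TMM (0.08). No neighboring groups were apart in the order of F2r means.

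**Figure D2:**
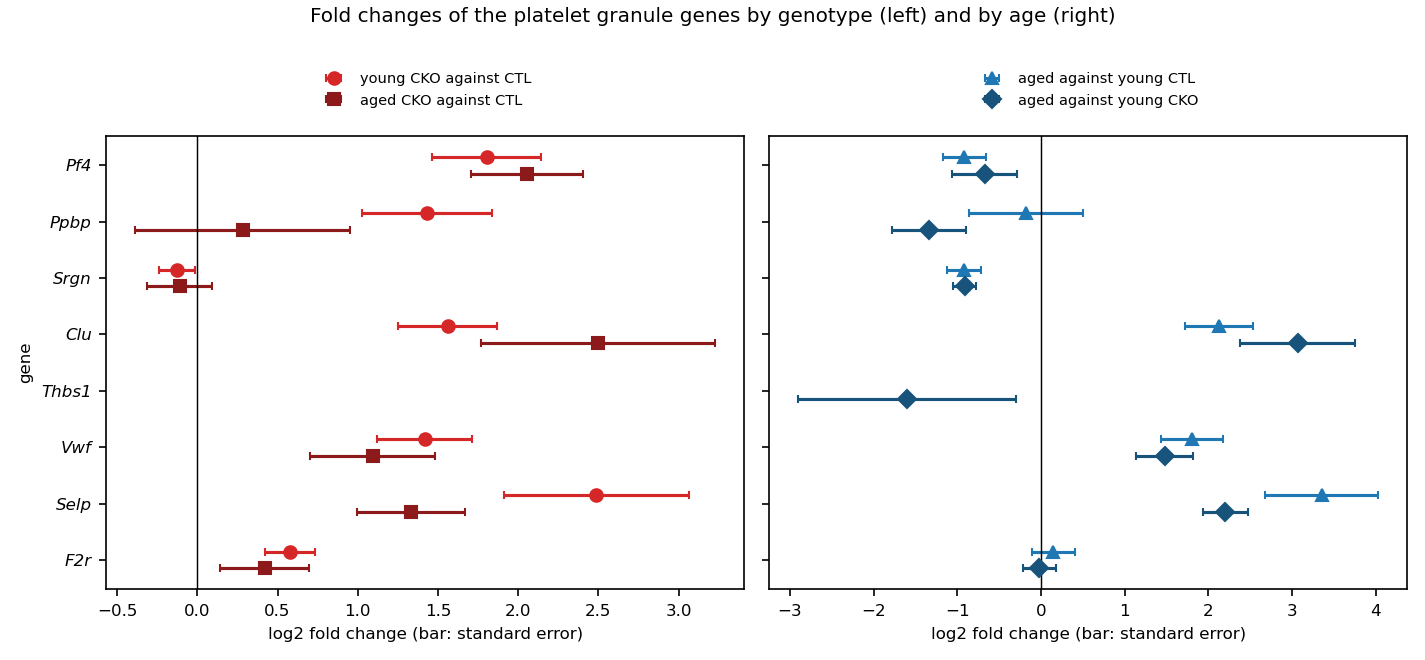
Log2 fold change with its standard error for each platelet granule gene, Ythdf2CKO against Ythdf2CTL in young and aged mice (left) and aged against young mice in each genotype (right). Thbs1 is shown only where it passed the filter. The largest value by genotype is that of Clu in aged mice (2.50) and by age that of Selp in Ythdf2CTL mice (3.35). The comparisons share mice.

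Both libraries of a mouse come from separate samples of 100 cells, and for several of the genes they differed widely. Over the 16 mice with both libraries, the median absolute log2 ratio of library A to library B was 1.20 for Pf4, 1.16 for Ppbp, 0.79 for F2r, 0.72 for Clu, 0.62 for Thbs1, 0.54 for Vwf, 0.26 for Srgn and 0.18 for Selp. Of the 128 pairs of values, 90 were within 2-fold and 14 differed by more than 4-fold. By this median, Pf4 and Ppbp differed between libraries of the same mouse by more than the other genes did, and Selp and Srgn by less. Ppbp had 0 counts in some libraries, and the added 1 CPM shrinks the ratios of Thbs1, which was near the detection limit in most mice. In young control mice Selp differed more, with log2 ratios from -3.21 to -0.99.

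The most discordant mouse was aged Ythdf2CTL 114, in which the 8 genes had a median absolute log2 ratio of 2.06, against 0.45 for all genes with at least 10 CPM. In its library A Pf4 was 35.8 CPM and in library B 321 CPM. Clu was 4.23 and 93.3 CPM and Vwf 6.92 and 97.3 CPM in these libraries. Selp, at 175 and 239 CPM, was alike in both. Without library A of this mouse, Pf4 was no longer apart between the genotypes in aged mice, because the level of mouse 114 then exceeded that of the mouse labelled Ythdf2CKO 121.

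The largest Pf4 value of all libraries, 5653 CPM, was in library B of young Ythdf2CKO mouse 3, whose library A had 1354 CPM. With library A alone the log2 fold change of Pf4 in young mice was 0.94 (SE 0.40), and with library B alone it was 3.09 (SE 0.48). For Ppbp these values were 0.74 (SE 0.81) and 2.27 (SE 0.73). When each library was taken as a sample, 2 of the 8 genes, Vwf and Selp, stayed apart in young mice, beside 0.165% of all genes, a count from which nothing is read. For Vwf the highest control library had 30.1 CPM and the lowest Ythdf2CKO library 32.7 CPM. For Selp the closest libraries had 65.3 and 65.4 CPM. Selp was higher in library B than in library A in each of the 4 young control mice, at 0 and 8.22 CPM in mouse 1, 1.18 and 10.7 in mouse 2, 8.63 and 29.7 in mouse 3, and 32.5 and 65.3 in mouse 4.

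**Figure D3:**
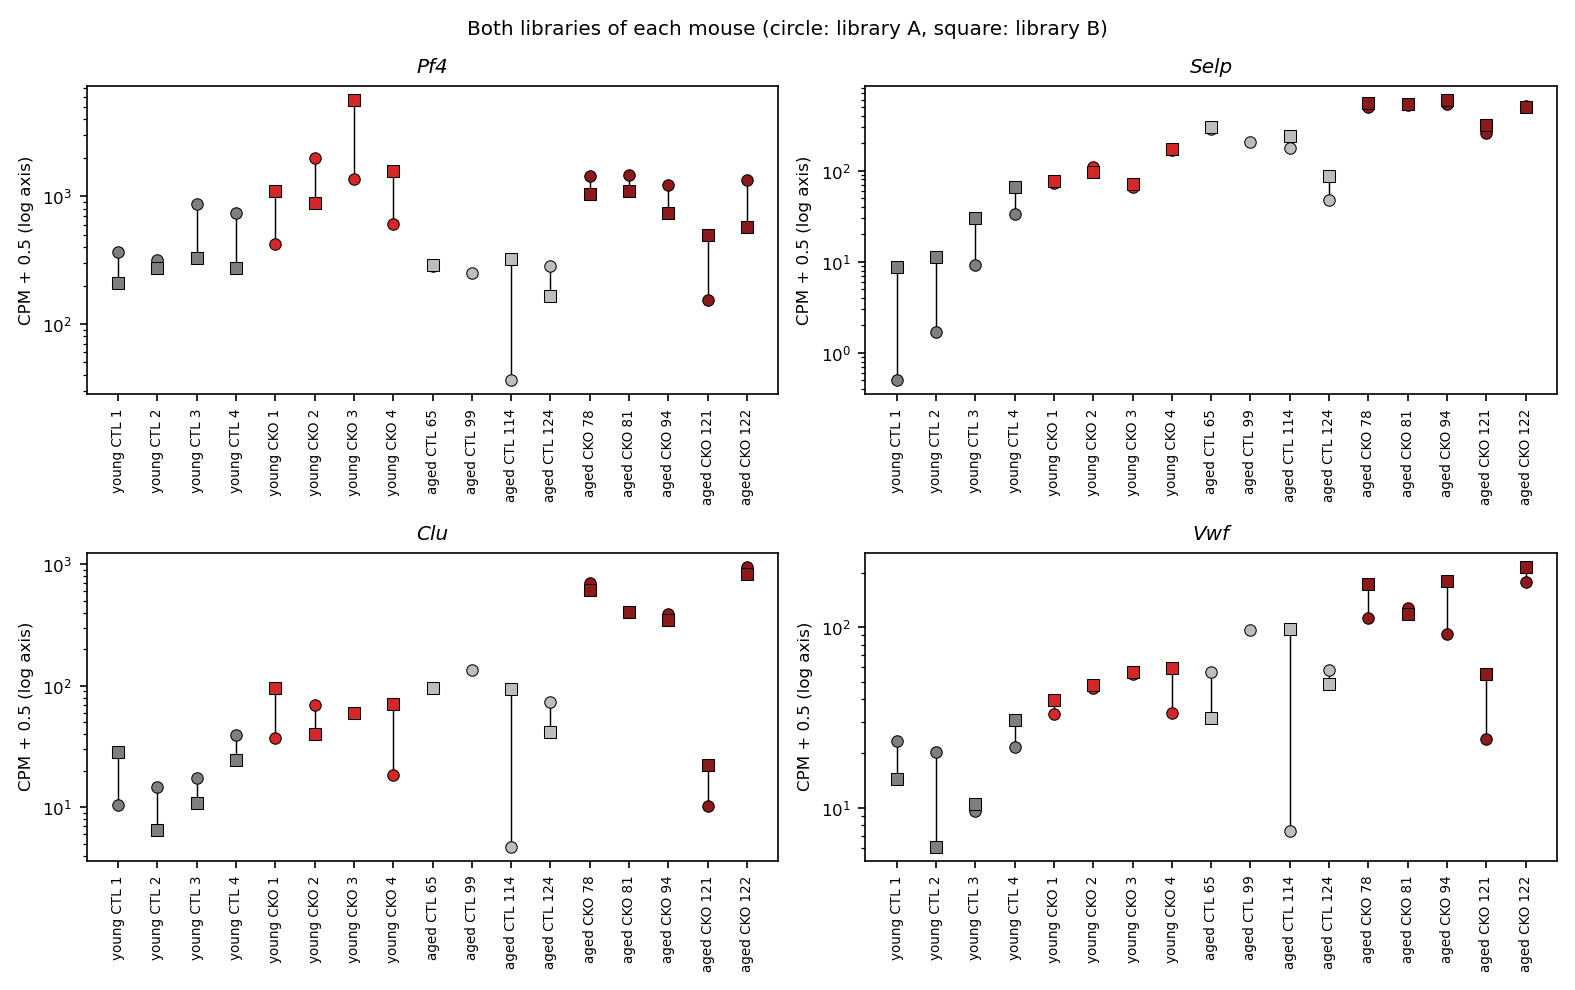
Levels of Pf4, Selp, Clu and Vwf in library A (circles) and library B (squares) of each mouse, as CPM plus 0.5 on a log axis, with a line joining the libraries of a mouse. Pf4 in aged Ythdf2CTL mouse 114 runs from 35.8 to 321 CPM, whereas the Selp libraries of each Ythdf2CKO mouse nearly coincide.

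The genes did not vary as 1 block across mice. Over the 17 mice, the Pearson correlation of log2 levels had a median of 0.26 over the 28 pairs of genes, and 0.28 after the group means were removed. Clu and Vwf were the most alike, at 0.93 over all mice and 0.87 within groups. Pf4 and Ppbp reached 0.68 and 0.51. Vwf and Selp were at 0.84 over all mice and 0.24 within groups, and Srgn and Selp at -0.72 and -0.01, so these relations lay mainly between the groups. The points share libraries and groups, and the values are a description. By mouse, the one labelled Ythdf2CKO 121 was below all aged controls in 4 of the 8 genes, and the other aged Ythdf2CKO mice were above all aged controls in 4 or 5 genes. Among young controls mouse 4 was the highest in 6 of the 8 genes. The share of all genes outside the control range is not given for single mice. The 8 genes were chosen by their levels, so nothing is read from these counts.

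**Figure D4:**
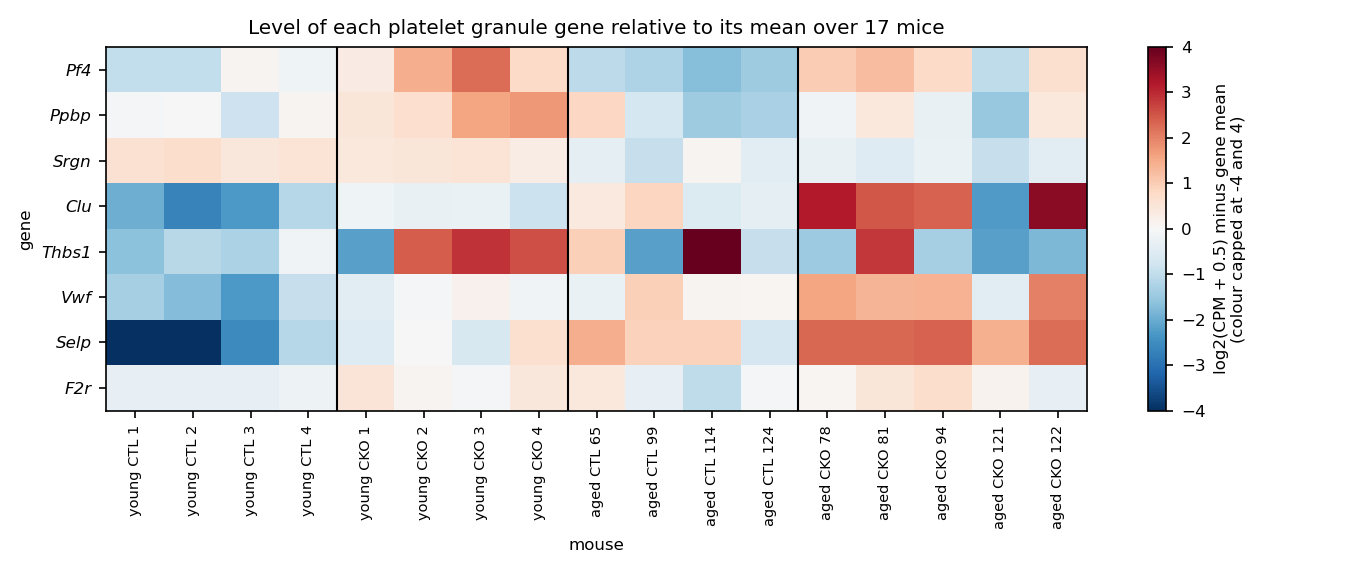
Log2(CPM + 0.5) of each platelet granule gene minus its mean over 17 mice, with mice in columns ordered by group. Blue is below and red above the gene's mean, with the color capped at -4 and 4. Ythdf2CKO mouse 121 is blue for Clu (14.7 CPM) where the other 4 aged Ythdf2CKO mice are red, and Srgn turns from red in young to mostly blue in aged mice.

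Among 10585 genes with a mean of at least 5 CPM, those whose log2 level followed the mean of the 8 genes most closely were Ninj1 (r = 0.89), Erp27 (0.88), Muc1 (0.87), Plek (0.87), Nrgn (0.86), Mfsd5 (0.85), Tpgs1 (0.84) and Gadd45g (0.84). Plek encodes pleckstrin, a substrate of protein kinase C that is abundant in platelets, and was at a mean of 86.9 CPM in young Ythdf2CTL, 213 in young Ythdf2CKO, 97.5 in aged Ythdf2CTL and 245 in aged Ythdf2CKO mice. The genes most like Pf4 were Rap1b (r = 0.94), Inka1 (0.88), Il12a (0.86), Cd9 (0.86) and Fam69a (0.84). Rap1b, a small GTPase of integrin activation in platelets, was at 820.4, 1649, 607 and 1365 CPM in the same order of groups. Within groups its correlation with Pf4 was 0.82. The median correlation of all candidates with either pattern was close to 0 (-0.0060 and -0.0046), which says nothing about genes picked from the top. These genes were picked because they followed the 8 genes or Pf4, which were themselves chosen by their levels. Nothing is therefore read from their group means.

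Other platelet genes were counted from 8 lists with 138 different genes, of which 124 were in the table. In young mice 0 of 112 tested genes passed the edgeR quasi-likelihood test between genotypes, beside 0.174% of all genes. An unadjusted p below 0.05 was found for 17 of them (14 with a positive and 3 with a negative fold change), and for 7.06% of all genes. DESeq2 called 4. In aged mice 0 of 117 passed, as did 0% of all genes. An unadjusted p below 0.05 was found for 24 of them (17 positive, 7 negative) and for 10.1% of all genes, and DESeq2 called 2. Over all these genes the median log2 fold change was 0.045 in young mice, with 64 of 112 positive, and 0.055 in aged mice, with 66 of 117 positive, as 49.9% and 49.7% of all genes were. By list, the median in young and aged mice was 0.13 and 0.03 for other alpha granule cargo, 0.07 and 0.03 for alpha granule biogenesis, 0.02 and 0.05 for dense granule genes, and -0.13 and 0.06 for the release machinery. It was 0.12 and 0.09 for the megakaryocyte transcription factors, 0.22 and 0.54 for receptors and partners of the 8 genes, and -0.05 and -0.24 for PAR signaling. Among the 11 tested genes of the megakaryocyte and platelet surface, the median log2 fold change was 0.43 in young and 0.95 in aged mice, and 8 and 10 of the 11 had a positive value. Over all genes the median was close to 0 in both comparisons (-0.00093 and -0.0033). The summed level of this list was 1069 to 1273 CPM in young Ythdf2CTL and 1359 to 1589.8 CPM in young Ythdf2CKO mice, and 795 to 1985 CPM in aged Ythdf2CTL and 1513 to 2135 CPM in aged Ythdf2CKO mice. It was apart between genotypes in young mice, as were the sums of 3 more of the 15 gene lists, those of HSC identity, dense granule genes and receptors and partners of the 8 genes, all higher in Ythdf2CKO mice. In aged mice the overlap came from the mouse labelled Ythdf2CKO 121, at 1513 CPM, while the other 4 Ythdf2CKO mice, from 2029 to 2135 CPM, were all above the highest aged control. None of its 12 genes in the table was at 0 throughout a group, although P2ry12 was at 0 in 3 of 4 young Ythdf2CKO mice. The part of this list in the levels of the 8 genes was not tested. Of its most abundant genes per kilobase, Cd9, a tetraspanin, was at 442 and 565 CPM in young and 266 and 452 CPM in aged Ythdf2CTL and Ythdf2CKO mice, and Gp9, a part of the receptor for von Willebrand factor, at 84.5, 61.7, 59.6 and 110.2 CPM in the same order.

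With age, 5 of 112 tested platelet genes rose and 4 fell in Ythdf2CTL mice, beside 3.33% and 4.59% of all genes. Nbeal2 and Vps33b, which alpha granules need to form, rose by 1.68 (SE 0.41) and 1.50 (SE 0.36) on the log2 scale with an adjusted p of 0.0292 each. F2rl3, the gene of the thrombin receptor PAR4, rose from a mean of 65.0 to 128 CPM (adjusted p = 0.0276), as did Gnaq and Arhgef1, which act downstream of such receptors. Cd9, Bloc1s2, Stx8 and Rgs18 fell. The count depended on single mice and ran from 0 to 18 genes with 1 mouse left out. All adjusted p are from the edgeR quasi-likelihood test.

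In Ythdf2CKO mice 21 of 118 platelet genes rose and 11 fell with age, beside 10.1% and 11.6% of all genes. On the surface Itga2b, Gp9 and Tbxa2r rose, the last of these, the thromboxane receptor, from 32.0 to 108 CPM (log2 change 1.75, SE 0.30, adjusted p = 0.0019). Itga2b, the integrin chain that binds fibrinogen and von Willebrand factor, rose from 97.9 to 249.8 CPM (adjusted p = 0.00795). Of the megakaryocyte transcription factors Gata2 and its cofactor Zfpm1 rose by 1.05 (SE 0.19) and 1.00 (SE 0.17). Tgfb1, another alpha granule cargo, rose from 151 to 320.3 CPM. In the release machinery Vamp2, Stxbp2, Unc13d and Rab27a rose and Vamp8 and Stx8 fell, and of the dense granule genes Hps1, Ap3d1 and Slc17a9 rose and Bloc1s2, Lyst, Rab32 and Rab38 fell. F2rl3 rose from 87.0 to 164 CPM while F2rl2, which encodes the related receptor PAR3, fell from 114 to 54.3 CPM. Cd47 and Lrp8 fell, and among the signaling genes Gna11, Gna12, Gnai2, Plcb3 and Arhgef1 rose and Rock1 and Rgs18 fell. Vps33b rose by 1.58 (SE 0.28). The count of called platelet genes, 32 in all, ran from 22 to 39 with 1 mouse left out. It was much lower with library B alone, as given below.

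The letters GGACT, the most common form of the m6A consensus, were counted on the sense strand of the longest coding transcript of each gene in GENCODE. Thbs1 and Vwf held 13 each, in 5848 and 8834 bases, Selp 3, Clu and F2r 2 each, Pf4 and Ppbp 1 each and Srgn 0. Per kilobase this is 2.22 for Thbs1, 1.70 for Pf4, 1.47 for Vwf and 1.11 for Clu, above the median of 1.04 over 11676 genes, and 0.92 for Ppbp, 0.87 for Selp and 0.60 for F2r, below it. Of all genes, 7.46% held none. These letters are not measured methylation.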

How the data were processed

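Reads of SMART-Seq2 libraries had been mapped by the authors (HISAT2, GRCm38) and summarized per gene (Rsubread), and the deposited values are raw whole-number counts. The annotation, the use of strand and the rule for keeping genes are not given in the sources used here. The genes described and the gene lists were chosen with earlier results of these data known. Tests of the 8 genes themselves had been planned between ages and are not given, because the choice used levels at both ages. Both libraries of an animal were summed, which made the animal the replicate. One library of 187034 counts was left out. The table had 13108 genes in 34 libraries, 20 gene rows with names turned into dates and 1 row with no counts.

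Genes were kept by filterByExpr (minimum count 10, total 15), scaled by TMM and tested in edgeR 4.0.16 (R 4.3.3) by quasi-likelihood, with adjusted p (Benjamini-Hochberg) called at 0.05, separately for 4 comparisons. The SE of a log2 fold change was taken from its F statistic. Levels are TMM-scaled CPM over all 17 mice, and log2 levels add 0.5 CPM (ratios of libraries add 1). Detection limits cover counting error only, since reads carry no molecular identifiers. The SE also includes variation between mice. Per mouse, totals were 2218618 to 10125624. Named besides the 8 genes are Ythdf2, called genes and the 3 most abundant genes per list, and the genes most like the set or Pf4. A result under this rule that is not reported here remains in the counts. Alternatives were DESeq2 1.42.0 and its size factors, other filters, libraries as replicates or alone, a replicate block, a Y-linked covariate, 1 fit of all mice, and mice left out. The code was tested on simulated data.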

Additional observations from a re-analysis of the deposited data

Results flagged for a closer look

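Each of the 8 genes was examined in each of the 4 groups for a mouse far from the rest of its group by Dixon's ratio. Of 32 sets of values, 4 held such a mouse, where chance gives about 1 in 20, or 1.6 sets. Thbs1 was 51.6 CPM in aged Ythdf2CTL mouse 114, and the next highest mouse of the group had 3.88 CPM. Thbs1 was also 15.5 CPM in aged Ythdf2CKO mouse 81, where the next had 0.39 CPM. Selp was 286 CPM in the mouse labelled aged Ythdf2CKO 121, below the next lowest at 504 CPM, and the Ythdf2 level of this mouse goes against its label. F2r was 136 CPM in young Ythdf2CTL mouse 4, and the next highest mouse had 126 CPM, a gap that stands out because the other 3 mice were nearly equal.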

How the results depend on the processing

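Of the log2 changes of the 8 genes under the alternatives, 554 moved by less than the spread between mice, 10 moved by more and 14 changed sign, and the cause of these changes was not tested. The number of the 8 genes apart between genotypes in young mice (6) was 2 with libraries as replicates and 2 with library A alone. In aged mice (1) it was 0 with libraries as replicates, with library A alone and without library A of Ythdf2CTL 114 (chosen after seeing the data), 2 with library B alone, 4 without mice 121 and 124, and 1 to 4 with 1 mouse left out. The genes above in every aged Ythdf2CTL mouse (3) were 0 with libraries as replicates and 1 with library A alone, and those below (2) were 1 with libraries as replicates, with library B alone, with total counts and without library A of Ythdf2CTL 114 (the last 2 settings chosen after seeing the data). In Ythdf2CKO mice the genes above (1) were 3 without mice 121 and 124 and 1 to 3 with 1 mouse left out, and those below (2) were 1 with libraries as replicates, library A alone and library B alone. Other platelet genes called between genotypes (0) were 4 by DESeq2 and 4 with libraries as replicates in young mice, and in aged mice 2 by DESeq2, 12 with libraries as replicates and 2 without mice 121 and 124. With age in Ythdf2CTL mice (9) they were 23 by DESeq2, 22 with libraries as replicates, 1 with library A, 0 with library B, 18 without mice 121 and 124, 20 in 1 fit of all mice and 0 to 18 with 1 mouse left out. In Ythdf2CKO mice (32) they were 49 with libraries as replicates and 8 with library B. The log2 changes that turned sign were those of Srgn, Ppbp, F2r and Pf4. Srgn between aged genotypes was -0.27 to 0.0798 with 1 mouse left out, the latter without Ythdf2CTL 114. With age in Ythdf2CTL mice Ppbp was 0.52 with library B, 0.062 without mice 121 and 124, and -1.07 to 0.071 with 1 mouse left out (positive without 114 or 124), and F2r was -0.25 with library B and -0.12 to 0.35 with 1 mouse left out (negative without 65). With age in Ythdf2CKO mice Pf4 was 0.028 with library A, and F2r was 0.35 with library A, 0.075 with total counts (chosen after seeing the data) and -0.16 to 0.084 with 1 mouse left out.

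Young mice of both genotypes share numbers but are different animals, and the deviations of same-numbered mice correlated at -0.02 to 0.05, so the numbers do not pair them. With a replicate block on these numbers, the log2 fold change was 1.70 for Pf4, 1.37 for Ppbp, -0.13 for Srgn, 1.65 for Clu, 1.47 for Vwf, 2.98 for Selp and 0.56 for F2r, and 0 other platelet genes were called.

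Depth limits Thbs1 and Ppbp most, which had 0 to 277 and 12 to 192 counts per mouse. The difference between ages of a genotype effect was not tested.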

Other observations

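Between genotypes 0 of the tested erythroid, neutrophil and monocyte, mast cell, B cell, T and NK cell or endothelial markers passed the edgeR quasi-likelihood test in either age group. At an unadjusted p below 0.05, 7 of the 29 markers tested (24.1%) differed in young mice, 3 higher and 4 lower in Ythdf2CKO mice, against 7.06% of all genes. In aged mice 4 of 26 (15.4%) differed, 2 higher and 2 lower, against 10.1% of all genes. DESeq2 was not counted for these lists. With age, Cpa3, a mast cell protease, fell from 35.1 to 14.5 CPM in Ythdf2CTL mice (adjusted p = 0.0435) and from 20.5 to 5.64 CPM in Ythdf2CKO mice (adjusted p = 0.0384). Nkg7, a gene of cytotoxic granules, fell from 442 to 232 CPM (adjusted p = 0.0382) and from 412 to 229.9 CPM (adjusted p = 0.0113). In Ythdf2CKO mice Car1, an erythroid carbonic anhydrase, fell from 33.9 to 3.51 CPM (adjusted p = 0.0226), Lyz2 and Cd79b fell, and Csf3r and Lck rose. Of the 12 HSC genes, Ly6a, which encodes the sorting marker Sca-1, was higher in young Ythdf2CKO mice (643 against 280.2 CPM, adjusted p = 0.0201) and fell with age in Ythdf2CKO mice to 300.1 CPM (adjusted p = 0.0108).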
